A study of Mus musculus with 13 samples.

Results

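The intermediate filament system was examined through 10 of its genes in Sertoli cells enriched from adult mouse testis. They are *Vim*, *Des*, *Nes*, *Krt8*, *Krt18*, *Krt19*, *Lmna*, *Lmnb1*, *Lmnb2* and *Plec*, and they were taken by gene symbol. All 10 were present among the 27111 named features of the count table, and 7 of them had enough reads to be among the 14421 genes tested. RNA was sequenced from 6 control males and 7 males exposed to MSUS, in which unpredictable maternal separation is joined with unpredictable stress of the mother. All animals were wild-type C57Bl/6J mice, labelled Bl6 wt, and they were 3 to 5 months old when their cells were collected. MSUS pups spent 3 h of each day, at an hour that varied, away from the mother between postnatal days 1 and 14, and the mothers were stressed meanwhile by a cold swim or by restraint, while control litters were left undisturbed. Cells were sorted as diploid, large cells with high MitoTracker signal, a gate that needs no transgene or surface marker and that can pass other cells with these features. The question was how the vimentin of the adult cell compared with the keratins of the immature cell and with the lamins, and whether MSUS changed any of them.

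Intermediate filaments are rope-like polymers whose subunits share a central coiled-coil rod with conserved ends. Type III proteins such as vimentin and desmin can form filaments alone, whereas keratins need an acidic and a basic partner, such as keratin 18 with keratin 8, and the lamins form the meshwork under the inner nuclear membrane. Adult Sertoli cells are known for vimentin filaments around the nucleus and towards the junctions with germ cells, and fetal and immature Sertoli cells also for keratins 8 and 18. In the study, staining for vimentin, which was not part of the sorting gate, gave the share of sorted cells counted as Sertoli cells. RNA of Sertoli markers was looked at there as well. *Vim* RNA here is thus not a check independent of that staining.

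Cytoplasmic filament genes and *Lmna* can be compared in the coding sequence at the end of the rod, where filament proteins are most alike. The stretches below, of 36 bases each, were found by the consensus of the rod end in GENCODE transcripts of the GRCm38 build. They are written 5′ to 3′ in the direction of the gene, and carry in capitals every base that differs from *Krt8*.
Krt8: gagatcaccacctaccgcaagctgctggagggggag
Krt18: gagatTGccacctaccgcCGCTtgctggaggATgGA
Krt19: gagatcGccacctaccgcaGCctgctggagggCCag
Des: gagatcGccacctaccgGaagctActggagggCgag
Lmna: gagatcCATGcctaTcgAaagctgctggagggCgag
The *Krt8* stretch lies in exon 7 at chr15:101997861-101997896 on the minus strand. *Des* (chr1:75363648-75363683, plus strand, exon 6) had 32 of 36 bases identical to it and *Krt19* (chr11:100140955-100140990, minus strand, exon 6) had 31. *Lmna* (chr3:88484935-88484970, minus strand, exon 6) had 29. *Krt18* (chr15:102031473-102031508, plus strand, exon 6), whose protein pairs with keratin 8, had 26, the fewest of the stretches shown. Identity to *Krt8* over so short a stretch thus did not follow filament type, and does not rank the genes by relatedness. The consensus had no match in *Nes* or in *Plec*, which encodes a linker. It was a fixed pattern that allowed only some amino acids at set positions. The missing match in *Nes* thus does not show that nestin lacks this end of the rod. How reads can be shared between genes is a separate question, looked at through words of 31 bases. None of these words was shared among the genes whose stretches are shown. Over whole transcripts, 32.3% of the 31-base words of *Krt8* also occurred on the same strand of another gene, nearly all of them in its pseudogene *Krt8-ps*. For *Krt18* the share was 11.4%, mostly in *Gm5200*. For the other 8 members the share was at most 1.41% on the same strand. With both strands allowed, the share was 36.05% for *Krt8* and 5.28% for *Des*, whose shared words lie mostly in the antisense transcript *Gm15179*. The strand setting of the counting is not given in the sources used here, so the counting could have split or inflated the low values of *Krt8*, *Krt18* and *Des*.

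The libraries held 12701664 to 18649819 estimated counts each, of which 9776853 to 14383367 fell on named features. Sertoli markers (*Clu*, *Ctsl*, *Amhr2*, *Rhox5* and *Sox9*) summed to between 11880 and 14764 CPM (read counts scaled to a common library size) in controls and between 12094 and 14407 in MSUS samples, and all 5 were present in every library. Markers of haploid spermatids, which a diploid gate should leave out, summed to between 728 and 1772 CPM. The paper proposes that such transcripts are likely what is left of spermatids engulfed by Sertoli cells, which was not tested here. Spermatogonia markers summed to between 177 and 261 CPM, nearly all of it from *Uchl1*, and spermatocyte markers to between 64.3 and 168 CPM. Peritubular myoid, endothelial and Leydig markers summed to at most 207, 75.3 and 83.1 CPM. The macrophage list summed to between 387 and 539 CPM, nearly all of it from *Mrc1*, while *Adgre1*, *Csf1r*, *C1qa* and *C1qb* had medians of at most 3 counts. Per the exact permutation tests over samples, none of the 10 marker lists differed between the groups, the smallest p being 0.259 for spermatogonia. In the fit of all genes by limma with voom, 0 genes had an adjusted p under 0.05, and 781 had an unadjusted p under 0.05. edgeR's quasi-likelihood test and DESeq2 also called 0, with 793 and 835 genes at an unadjusted p under 0.05.

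Vimentin was the most abundant of these RNAs per length of transcript. *Vim* stood at 165 ± 12.5 CPM per kb of exon (SD, n = 13), *Plec* at 57.6 ± 10.2, *Lmnb1* at 17.0 ± 1.83 and *Lmnb2* at 6.11 ± 1.02. This order was the same in each of the 13 libraries. A-type lamin RNA was next at 0.631 ± 0.119 CPM per kb for *Lmna*, then *Krt8* at 0.468 ± 0.169 and *Des* at 0.464 ± 0.437. These neighbours were not clearly ordered, since *Lmna* exceeded *Krt8* in 10 of 13 libraries and *Krt8* exceeded *Des* in 8 of 13. *Nes*, *Krt18* and *Krt19* came last at 0.0900 ± 0.0636, 0.0674 ± 0.141 and 0.0610 ± 0.116 CPM per kb, with a wide spread between libraries.

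**Figure D1:**
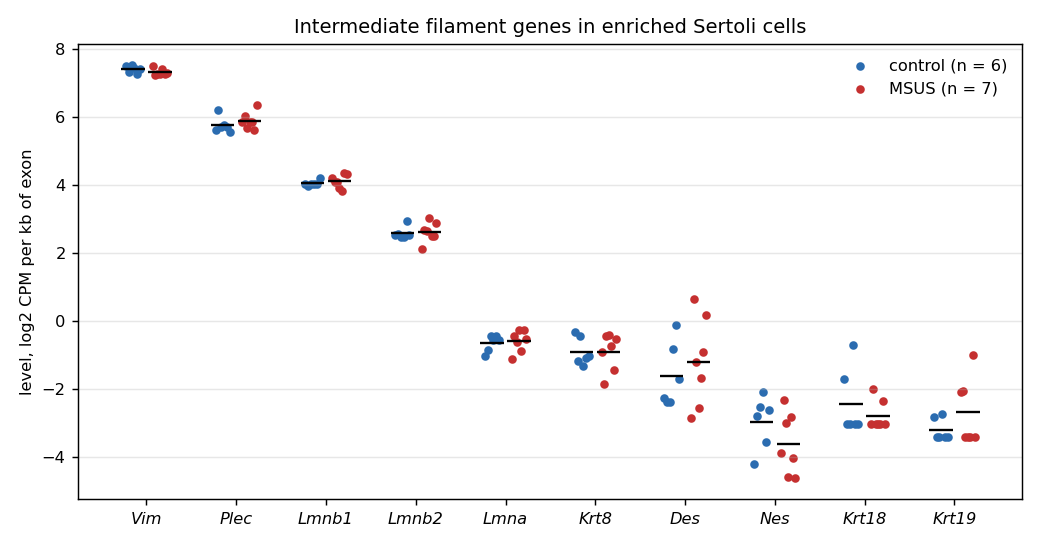
Level of each gene per sample, as log2 CPM per kb of exon (y axis), for control (blue, n = 6) and MSUS (red, n = 7), with the mean of each group as a bar. Genes are ordered by counts per kb of exon summed over all samples, and *Vim*, *Plec*, *Lmnb1* and *Lmnb2* stand apart from each other and from the 6 genes below them in every sample. The last genes do not follow this order on the plotted scale. There the mean over all samples was -3.32 for *Nes*, -2.63 for *Krt18* and -2.93 for *Krt19*. Points at the lowest shared value of *Krt18* and *Krt19* are libraries with 0 counts, placed there by the prior count of 2.

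Set against vimentin, the 3 keratins were rare. *Vim* exceeded *Krt8* by 350-fold per kb (95% interval from the counts 296 to 417), *Krt18* by 2728-fold (1595 to 5123) and *Krt19* by 3052-fold (1850 to 5452), in 13 of 13 libraries each. Over all 13 libraries, 117039 counts fell on *Vim* and 138, 13 and 15 on the 3 keratins. These intervals cover counting error only. A single library held much of each acidic keratin: without control 14, which had 7 of the 13 counts of *Krt18*, the fold over *Krt18* was 5498, and without MSUS 23, which had 7 of the 15 counts of *Krt19*, the fold over *Krt19* was 5391. Per kb of the longest transcript in place of all exons, the folds over *Krt8*, *Krt18* and *Krt19* were 567.5, 4422 and 4203. The nuclear lamins lay between these extremes, with *Vim* 9.74-fold above *Lmnb1*, 26.9-fold above *Lmnb2* and 263-fold above *Lmna* per kb. The B-type lamin RNAs thus both exceeded the A-type RNA, and *Lmnb2* alone stood 9.78-fold above *Lmna*, in every library.

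*Vim* (chr2:13573927-13582826, plus strand), the type III filament of mesenchymal cells and of Sertoli cells, had 8163, 9896 and 11354 counts in controls (lowest, median and highest) and 6763, 8125 and 9853 in MSUS samples. After TMM scaling this was 731, 819 and 885 CPM in controls against 721, 727 and 852 CPM in MSUS samples. The groups overlapped, with MSUS 1 near the top and MSUS 13 in the middle of the control range and 4 MSUS samples below every control, all 4 within a narrow band just under the lowest control. Mean log2 CPM reached 9.66 ± 0.11 (SD, n = 6) for the controls and 9.56 ± 0.09 (n = 7) for the MSUS group, higher than in 99.4% of the genes tested. The log2 fold change was -0.10 (SE 0.06, 95% interval -0.22 to 0.02), with an adjusted p of 0.878 by limma, so *Vim* did not pass the test. The interval covers a level from 0.859 to 1.02 times that of controls. Of the 7 MSUS samples, 6 lay below the control mean. The unadjusted p of 0.105 ranged over the alternatives from 0.0290 without MSUS 1 to 0.257 with the peritubular myoid marker score as a covariate. It was also under 0.05 without control 22 (0.0411) and with sample quality weights (0.0389). It was 0.244 without control 12 and 0.215 without control 9. The adjusted p was at least 0.614 under every alternative run. In these bulk samples, fewer cells of a type and less RNA per cell cannot be told apart.

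None of the other members passed the test either. In the limma fit, 0 of the 7 members tested had an adjusted p under 0.05 and 0 had an unadjusted p under 0.05, against 5.42% of all genes at the unadjusted threshold. For 0 of the 7 did the groups fail to overlap, against 0.132% of all genes. The median log2 fold change over the 7 was 0.05, with only *Vim* below 0, while the median over all genes tested was -0.00 and 50.5% of genes lay below 0. The SE was 0.06 for *Vim*, 0.09 for *Lmnb1*, 0.11 for *Plec*, 0.13 for *Lmnb2*, 0.20 for *Lmna*, 0.36 for *Krt8* and 0.62 for *Des*, around a median of 0.13 over all genes.

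**Figure D2:**
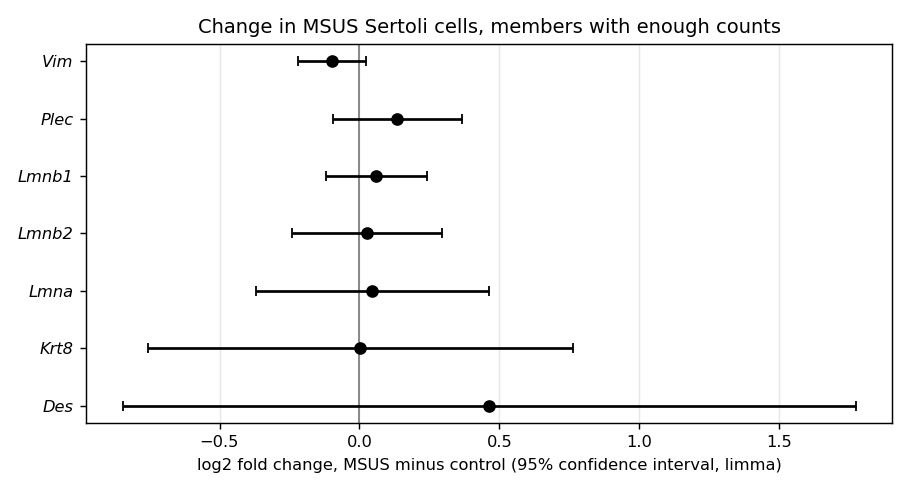
Log2 fold change, MSUS minus control (x axis), of the 7 genes that had enough counts to be tested, with 95% confidence intervals from limma (n = 6 and 7). Every interval includes 0, from the narrow one of *Vim* (-0.22 to 0.02) to the wide one of *Des* (-0.85 to 1.77).

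Nestin and desmin can share filaments with vimentin. *Nes* (chr3:87971078-87980451, plus strand), a large partner found in progenitor cells and in vessel walls, had 2, 10 and 13 counts in controls and 1, 3 and 12 in MSUS samples. Low values were found in both groups, and the libraries at or under 3 counts were 1 control and 4 MSUS samples. *Nes* had too few counts to be tested with the other genes. In a fit without the count filter, its log2 fold change was -0.86 (SE 0.58, adjusted p = 0.929 by limma).

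*Des* (chr1:75360329-75368579, plus strand), the filament of muscle cells, had 7, 9 and 44 counts in controls and 4, 16 and 63 in MSUS samples. Its 3 highest levels belonged to MSUS 5, MSUS 26 and control 22, at 5.70, 4.03 and 3.24 CPM, and its lowest to MSUS 1, at 0.346 CPM, so the highest was 16.5 times the lowest. The groups overlapped, with a log2 fold change of 0.46 (SE 0.62, 95% interval -0.85 to 1.77, adjusted p = 0.935 by limma). The SD within groups was 1.15 on the log2 scale, above that of 97% of the 200 genes nearest to it in level. An annotated antisense transcript, *Gm15179*, shares 220 bp with the exons of *Des*.

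Libraries with more desmin RNA had a higher mean of 6 markers of peritubular myoid cells, the smooth-muscle-like cells around the tubule. Which cells this RNA came from was not tested. Over 13 samples, log2 CPM of *Des* and the mean of the 6 myoid markers had a Pearson's r of 0.82 (permutation p = 0.00100, adjusted p = 0.00200 over 14 relations of this kind) and a Spearman's rho of 0.73 (permutation p = 0.00683, adjusted p = 0.0120). Without MSUS 5 and MSUS 6, the samples farthest from the median of the markers, r was 0.79, and it was 0.70 within controls and 0.88 within MSUS samples. The 14 relations were chosen after values had been seen. Among the markers, *Myh11*, the smooth muscle myosin heavy chain, had an r of 0.89 with *Des*, *Tagln* 0.80, *Acta2* 0.75 and *Cnn1* 0.73. The other two did not follow it, with an r of 0.13 for *Mylk* and -0.39 for *Actg2*. The 6 markers summed to between 116 and 169 CPM in controls and between 126 and 207 in MSUS samples, and *Mylk* and *Actg2* gave most of that sum, while *Cnn1* had a median of 7 counts. Their mean differed by 0.46 on the log2 scale between groups (exact permutation p = 0.309). With the marker mean as a covariate, the log2 fold change of *Des* was -0.06 (SE 0.42) in place of 0.46.

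**Figure D3:**
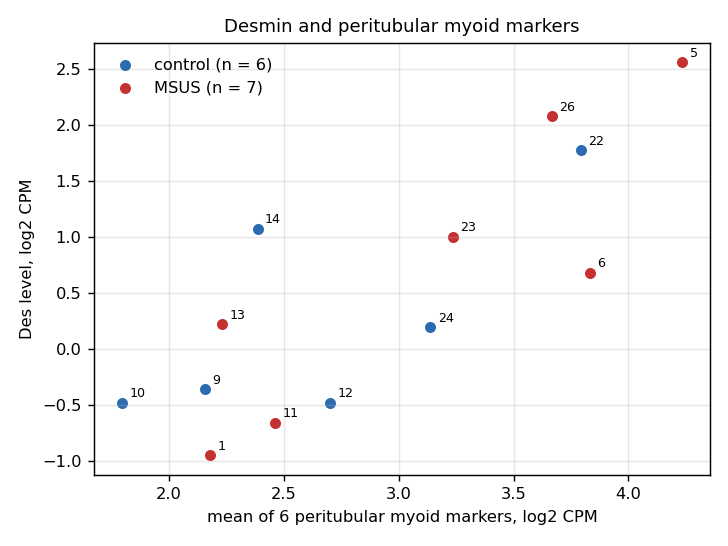
Log2 CPM of *Des* (y axis) against the mean log2 CPM of 6 peritubular myoid markers (x axis), for control (blue, n = 6) and MSUS (red, n = 7), each point being a sample with its replicate number. Both groups spread along the same rising band (r = 0.82 over 13 samples), with MSUS 5, MSUS 26 and control 22 at the upper end.

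*Vim* moved the other way along these samples. Its r with *Des* was -0.57 (permutation p = 0.0428, adjusted p = 0.300 over the 7 pairs of members compared) and its rho was -0.51 (permutation p = 0.0791, adjusted p = 0.277), so the pair did not pass the correction. Without controls 12 and 9 its r was -0.47, and within groups it was -0.53 for controls and -0.59 for MSUS samples. With the myoid marker mean, *Vim* had an r of -0.60 (permutation p = 0.0327, adjusted p = 0.0416 over the 14 relations) and a rho of -0.69 (permutation p = 0.0123, adjusted p = 0.0191). That r became -0.47 without MSUS 5 and MSUS 6 and was -0.33 within controls and -0.73 within MSUS samples. With the myoid marker mean as a covariate, the log2 fold change of *Vim* was -0.07 (SE 0.06) in place of -0.10. With the spermatid marker score as a covariate it was -0.11 (SE 0.06), and that of *Des* was 0.77 (SE 0.45) in place of 0.46. None of these fold changes passed the limma test.

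The genes most like each of these 2 members across the 13 samples are given as a description with no test. For *Vim* they were *Tpx2*, a spindle assembly factor (r = 0.92), *Hspa8*, a constitutive heat shock protein (r = 0.91), and *Cfl1*, which severs actin filaments (r = 0.90). For *Des* they were *Tpm2*, a muscle tropomyosin (r = 0.92), *Flna*, an actin cross-linker (r = 0.92), and *Ints2*, an Integrator subunit (r = 0.90). With 14421 genes to choose from, high values of r arise in any list of this kind.

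The keratins were at or near the limit of detection. *Krt8* (chr15:101996698-102004482, minus strand), the basic partner, had 6, 10 and 16 counts in controls and 4, 11 and 14 in MSUS samples. Every library held some, and the groups overlapped, with 2 of the 7 MSUS samples below every control. Its log2 fold change was 0.00 (SE 0.36, 95% interval -0.76 to 0.76, adjusted p = 0.999 by limma), an interval that covers 0.592 to 1.70 times the control level. Its mean level was above that of 2.45% of the genes tested.

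*Krt18* (chr15:102028180-102032027, plus strand), the acidic partner, was read in 4 of the 13 libraries, with 7 counts in control 14, 3 in control 9, 2 in MSUS 5 and 1 in MSUS 23. *Krt19* (chr11:100140810-100148665, minus strand), an acidic keratin of ducts and progenitors, was read in 5, with 7 counts in MSUS 23, 3 each in MSUS 1 and MSUS 5 and 1 each in controls 9 and 14. A count of 0 in a library allows up to 3 counts, and 12 of 13 libraries were at or under 3 for each gene. Neither gene could be tested with the others. Without the count filter the log2 fold change was -0.44 (SE 0.75, adjusted p = 0.949) for *Krt18* and 0.95 (SE 0.74, adjusted p = 0.929) for *Krt19* by limma.

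All 4 libraries with *Krt18* counts also held *Krt19* counts, and 8 libraries held neither. As a correlation of levels, r was 0.41 (permutation p = 0.117, adjusted p = 0.410) and rho was 0.80 (permutation p = 0.00119, adjusted p = 0.00833). The pair is too sparse for more than this count of libraries, since r was 0.16 on CPM without a prior count. *Krt8* had an r of -0.37 with its partner *Krt18* (permutation p = 0.216, adjusted p = 0.480) and a rho of -0.43 (permutation p = 0.141). With 9 of 13 libraries at 0 counts of *Krt18*, these values cannot show whether the partners track each other. Markers of duct epithelium (*Epcam*, *Cdh1*, *Pax8*, *Krt7* and *Cldn4*) summed to between 14.6 and 23.9 CPM in controls and between 16.6 and 23.3 in MSUS samples, with *Pax8* and *Cldn4* at a median of at most 3 counts. Their part in the keratin counts was not tested. The genes most like *Krt18* were *Rap2b* (r = 0.84), *Adam15* (r = 0.83) and *Olfr667* (r = 0.82), and these values rested in part on controls 14 and 9, without which r was 0.77, 0.52 and 0.61.

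Of the 61 other cytoplasmic intermediate filament genes in the table, 49 had a median of at most 3 counts and 7 were tested. None of the 7 had an unadjusted p under 0.05, and their median log2 fold change was -0.06. The highest level in log2 CPM, which is not per length, was that of *Synm*, which encodes synemin, a partner of desmin and vimentin, at 5.38 ± 0.13 log2 CPM in controls and 5.55 ± 0.26 in MSUS samples (log2 fold change 0.17, SE 0.11, adjusted p = 0.878 by limma). Per kb of exon, *Bfsp1*, which encodes the lens protein filensin and was singled out after its values were seen, was higher than *Synm*, at 8.33 against 5.65 CPM per kb.

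The lamins were read in every library. Their SD within groups on the log2 scale was 0.16 for *Lmnb1*, 0.25 for *Lmnb2* and 0.28 for *Lmna*, above that of 53.5%, 80% and 5% of the 200 genes nearest to each in level, where that of *Krt8* was above 8.5%. *Lmnb1* (chr18:56707813-56753424, plus strand), a B-type lamin that stays attached to the membrane, had 472, 592 and 685 counts in controls and 463, 560 and 699 in MSUS samples. In CPM this was 46.6, 48.2 and 54.8 against 41.8, 50.1 and 60.5, so the MSUS samples spread to both sides of the controls. Its log2 fold change was 0.06 (SE 0.09, 95% interval -0.12 to 0.24, adjusted p = 0.940 by limma). *Lmnb2* (chr10:80901203-80918245, minus strand), the other B-type lamin, stood at 23.6, 24.7 and 32.5 CPM in controls and 18.4, 26.4 and 34.9 in MSUS samples. MSUS 1 was the lowest and MSUS 11 the highest of all libraries, and the log2 fold change was 0.03 (SE 0.13, 95% interval -0.24 to 0.29, adjusted p = 0.979).

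*Lmna* (chr3:88480147-88509956, minus strand), from which lamins A and C are spliced and which is known to be more abundant in stiff tissues, had 31, 42 and 56 counts in controls and 29, 43 and 51 in MSUS samples. In CPM these were 2.69, 3.77 and 4.13 against 2.51, 3.87 and 4.70, with the groups overlapping and 1 MSUS sample below and 2 above every control. The log2 fold change was 0.05 (SE 0.20, 95% interval -0.37 to 0.46, adjusted p = 0.978 by limma). Across samples r was 0.18 between *Lmna* and *Lmnb1* (permutation p = 0.562, adjusted p = 0.565) and -0.18 between *Lmnb1* and *Lmnb2* (permutation p = 0.565), with rho values of 0.19 and -0.05. *Lmna* with *Lmnb2*, a pair added after values were seen, had an r of 0.63 (permutation p = 0.0194, adjusted p = 0.155 over 8 pairs) and a rho of 0.42 (permutation p = 0.152), and did not pass the correction. Its r was 0.43 without MSUS 1 and control 9, 0.29 within controls and 0.76 within MSUS samples, and both genes were lowest in MSUS 1 and highest in MSUS 11. The genes most like *Lmna* were *Zfp3*, *Klc1*, a kinesin light chain, and *Hepacam* (r = 0.85, 0.84 and 0.83).

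Where both genes are well counted, a ratio within a library hardly depends on how libraries are scaled, so the balance of vimentin against keratins and lamins was also compared as differences of log2 CPM. *Vim* minus *Lmnb1* reached 4.04 ± 0.13 (SD, n = 6) for the controls and 3.88 ± 0.23 (n = 7) for the MSUS group, lower in 6 of 7 MSUS samples than the control mean. The difference of -0.16 (SE 0.11) did not pass the exact permutation test (two-sided p = 0.167, adjusted p = 0.594 over 7 ratios). *Vim* minus *Lmnb2* differed by -0.13 (SE 0.18), *Vim* minus *Lmna* by -0.15 (SE 0.19) and *Vim* minus *Krt8* by -0.09 (SE 0.26), with exact p-values of 0.475, 0.451 and 0.724. For *Krt18* and *Krt19* the differences were 0.27 (SE 0.41) and -0.62 (SE 0.42), with exact p-values of 0.548 and 0.170. These 2 rest on the prior count, which alone sets the keratin term in libraries with 0 counts, and they were 0.46 and -0.95 with a prior count of 0.5. The A-type to B-type balance, *Lmna* minus *Lmnb1*, differed by -0.01 (SE 0.17, exact p = 0.969). The smallest p this design allows is 0.000583.

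**Figure D4:**
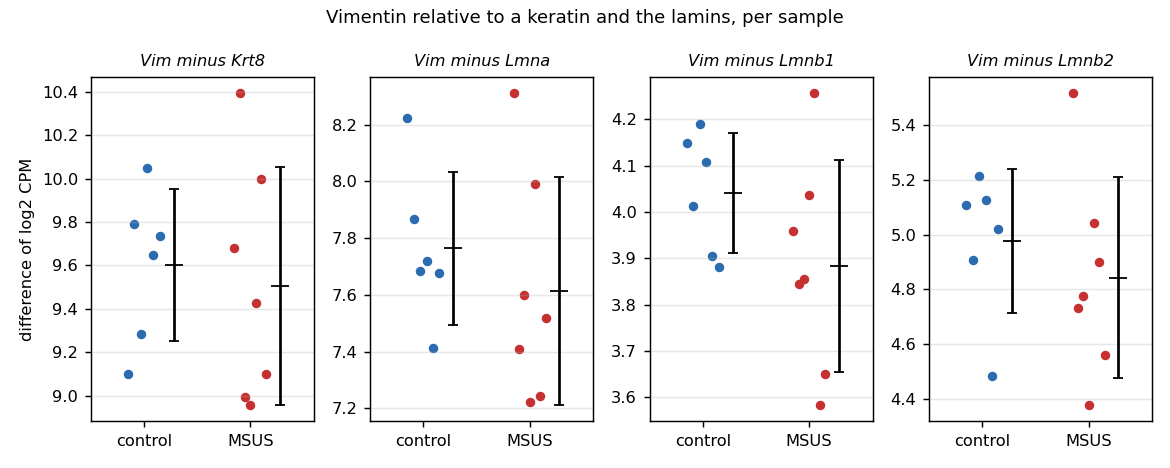
Log2 CPM of *Vim* minus that of *Krt8*, *Lmna*, *Lmnb1* and *Lmnb2* in each sample (y axes, scaled separately and not from 0), for control (blue, n = 6) and MSUS (red, n = 7). Bars give the mean and SD of each group. In each panel the groups overlap, and the MSUS means lie below the control means by 0.09 to 0.16.

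Proteins that anchor or process lamins were described next. Of the 16 partners of the nuclear envelope, 15 were tested and 0 had an adjusted p under 0.05. At an unadjusted p under 0.05, 1 was higher, against 3.02% of all genes, and 1 was lower, against 2.40%. *Syne1*, encoding nesprin 1, which ties the envelope to the cytoskeleton, went from 7.49 ± 0.30 log2 CPM in controls to 7.85 ± 0.36 in MSUS samples (log2 fold change 0.35, SE 0.15, unadjusted p = 0.0336, adjusted p = 0.878 by limma). *Lemd2*, an inner membrane protein that binds lamin A, went from 6.71 ± 0.09 to 6.56 ± 0.11 (log2 fold change -0.15, SE 0.07, unadjusted p = 0.0297, adjusted p = 0.878 by limma). The median over the 15 was 0.01. *Syne2*, encoding nesprin 2, had the highest log2 CPM of the partners, at 10.26 ± 0.23 and 10.50 ± 0.29, although per kb of exon *Sun2*, a partner of the nesprins named after its values were seen, was higher, at 70.3 against 51.2 CPM per kb. All 6 lamin processing enzymes were tested and none had an unadjusted p under 0.05, with a median log2 fold change of -0.00 and *Fnta*, a farnesyltransferase subunit, as the highest in log2 CPM, at 5.91 ± 0.10 and 5.80 ± 0.13 log2 CPM.

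*Plec* (chr15:76170974-76232574, minus strand) encodes plectin, a giant linker that ties vimentin filaments to actin, microtubules and junctions. It had 8726, 11180 and 19519 counts in controls and 8251, 11711 and 17493 in MSUS samples, or 847, 946 and 1327 CPM against 886, 1048 and 1470 CPM. MSUS 26 was the highest library, followed by control 10 and MSUS 5, and the groups overlapped. The log2 fold change was 0.14 (SE 0.11, 95% interval -0.10 to 0.37, adjusted p = 0.893 by limma). Without control 10 it was 0.23 (unadjusted p = 0.0322, adjusted p = 0.611), and without MSUS 26 it was 0.06. The SD within groups was 0.24, above that of 82.5% of the 200 genes nearest in level. *Plec* shares 205 bp of exon with *Parp10* on the same strand.

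*Plec* followed other long transcripts closely from library to library. A long-transcript score was taken as the mean deviation, in log2 CPM, of 382 tested genes outside all lists whose longest transcript is at least 10 kb. Over 13 samples *Plec* and this score had a Pearson's r of 0.94 (permutation p = 1e-05, the smallest that 100000 resamples can give, adjusted p = 7e-05 over 14 relations) and a Spearman's rho of 0.87 (permutation p = 0.00022, adjusted p = 0.00189). Without MSUS 26 and MSUS 5, r was 0.90, and it was 0.93 within controls and 0.95 within MSUS samples. The score was highest in MSUS 26 (0.26), MSUS 5 (0.17) and control 10 (0.12), the 3 libraries that were also highest in *Plec*, and lowest in control 24 (-0.19). With the score as a covariate, the log2 fold change of *Plec* was -0.01 (SE 0.05) in place of 0.14 (SE 0.11). The score and this alternative were chosen after values had been seen.

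**Figure D5:**
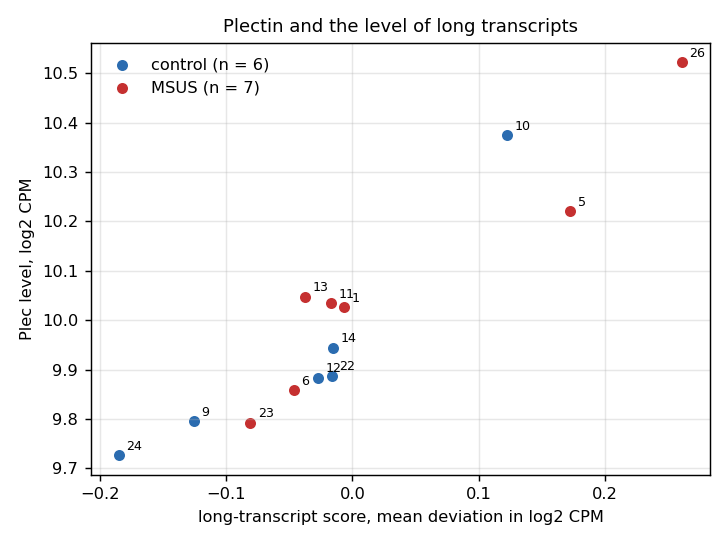
Log2 CPM of *Plec* (y axis) against the long-transcript score (x axis, mean deviation in log2 CPM of 382 genes with transcripts of at least 10 kb), for control (blue, n = 6) and MSUS (red, n = 7), each point being a sample with its replicate number. The samples of both groups lie along 1 rising line (r = 0.94), with MSUS 26, control 10 and MSUS 5 at the top and control 24 at the bottom.

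Taken over genes, median fold changes varied with transcript length. The median log2 fold change was -0.05 for the 707 genes with a longest transcript under 1 kb. It was -0.05 for the 2190 genes from 1 to 2 kb and -0.006 for the 7339 from 2 to 5 kb. It was 0.04 for the 2753 genes from 5 to 10 kb and 0.07 for the 388 genes of at least 10 kb. Of these 388 genes, 70.9% lay above 0. Genes measured in the same libraries are not independent, and this relation to length was not tested over samples. The long-transcript score was 0.26 in MSUS 26 and 0.17 in MSUS 5, above every control. In the other MSUS libraries it lay between -0.08 and -0.006, within the control range of -0.19 to 0.12. *Macf1*, the highest of the 15 linkers in log2 CPM and a link between actin and microtubules, stood at 10.36 ± 0.19 log2 CPM in controls and 10.52 ± 0.27 in MSUS samples (log2 fold change 0.16, SE 0.11, adjusted p = 0.878 by limma), and *Dst*, encoding dystonin, had a log2 fold change of 0.23 (SE 0.12, adjusted p = 0.878). *Plec* had an r of 0.90 with *Macf1*, 0.91 with *Dst*, 0.88 with *Syne1* and 0.92 with *Syne2*. Of the 15 linkers 8 were tested, 0 had an unadjusted p under 0.05, and their median log2 fold change was 0.14, with 2 of the 8 below 0. *Vim*, whose longest transcript has 2926 bases, had an r of -0.41 with the long-transcript score (permutation p = 0.166) and a rho of -0.19, and of -0.33 with *Plec* (permutation p = 0.274, adjusted p = 0.480), with a rho of -0.20. With *Nes*, *Vim* had an r of 0.24 (permutation p = 0.423) and a rho of 0.14. Whether RNA quality or library preparation had a part in the long-transcript values was not tested.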

How the data were processed

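RNA of sorted Sertoli cells was sequenced from 5 ng of input with a stranded total RNA kit and 12 PCR cycles, giving 100 bp single-end reads. After trimming (Trim Galore 0.6.5), the authors assigned them with Salmon 1.1.0 to GENCODE vM23 transcripts and deposited estimated counts per gene, not normalized. How transcripts were summed, genes named and strand set is not given in the sources used here. Of 54281 features, 27170 without a gene name (20.7% to 26.7% of the counts per library) were left out, and 0 columns could not be matched to a sample. The study's group sizes count each sample as 1 male. Litter and cage were not used here, and males of a litter, if any, were treated as independent.

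The members and gene lists were chosen with earlier results of these data known. Estimated counts were rounded and scaled by TMM (edgeR 4.0.16, R 4.3.3). Genes passing filterByExpr (minimum count 10) were tested with limma 3.58.1 and voom over all 13 samples, with Benjamini-Hochberg adjustment over all genes. A prior count of 2 was used for log2 CPM. Ratios were compared by exact permutation tests and correlations by 100000 resamples (scipy 1.17.1). edgeR's quasi-likelihood test, DESeq2 1.42.0, other scalings and filters, quality weights, covariates and leaving out each sample were alternatives. On simulated data of 14281 genes, limma called 90.8% of genes changed by a log2 fold of 1.0 and 10.2% of those changed by 0.5, all with the right sign. The simulation gave every gene the same dispersion. The spread of the members differed from gene to gene, so these rates do not give the power for any of them. Named genes were all members, and from each list other than the markers the most abundant gene and those with an unadjusted p under 0.05. The 3 genes most like *Vim*, *Krt18*, *Des* and *Lmna* that are not predicted genes were named too. Markers were described by list. Of the markers tested, only the endothelial *Tek* had an unadjusted p under 0.05 by limma (0.0274, adjusted p = 0.878, log2 fold change 0.75). *Bfsp1*, *Sun2*, *Dst*, *Tagln*, *Myh11* and the other singled-out markers were added after their values were seen. Coordinates, lengths and sequences come from GENCODE vM21 of GRCm38, the build of the authors' annotation in an earlier release, and 92.8% of the genes tested had a length there. Rod-end sequences of the other members are not reported here. Counting error alone would give a CV of 1.05% for *Vim* (observed 7.61%), 15.4% for *Lmna* (observed 18.8%) and 30.7% for *Krt8* (observed 36.1%). It is thus a large part of the spread of *Lmna* and *Krt8*. For the other low genes the observed CV was well above it. These were *Des* (22.4%, observed 94.1%), *Nes* (38.9%, observed 70.7%), *Krt18* (100%, observed 210%) and *Krt19* (93.1%, observed 190%).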

Additional observations from a re-analysis of the deposited data

Results flagged for a closer look

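Of 34 checks for a sample that stands apart within its group, 3 were positive, where chance gives about 1 in 20, or 1.7 here. Each was the highest control of its gene. *Lmnb1* was at 5.78 log2 CPM in control 24, with the other controls between 5.55 and 5.61. *Lmnb2* was at 5.03 in control 22, with the others between 4.57 and 4.66. *Plec* was at 10.37 in control 10, with the others between 9.73 and 9.94, and control 10 also had the highest long-transcript score of the controls.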

How the results depend on the processing

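Under 24 alternatives, 0 genes had an adjusted p under 0.05. No log2 fold change of a member (24 alternatives each, 19 for *Krt8*, which the count filter removed in the others), ratio (15 each) or correlation r of the 7 pairs (16 each) crossed its threshold. Genes with an unadjusted p under 0.05 numbered 781, but 1182 without the count filter, 1205 with the spermatid marker score as a covariate, and 534 to 1121 with 1 sample left out. *Vim* stayed lower in MSUS samples under each of them (log2 fold change -0.13 to -0.07, adjusted p 0.614 to 0.997). *Plec* was higher in all but 1 (adjusted p 0.611 to 0.998), with -0.00751 when adjusted for the long-transcript score. The sign also turned for *Krt8* (-0.0178 with library size alone, -0.0038 without the filter, -0.0786 with quality weights, -0.0047 with unnamed features kept, -0.0502 with the spermatid covariate), for *Des*, *Lmna* and *Lmnb2* with the myoid covariate (-0.0589, -0.0519 and -0.0419), and for *Lmnb2* with the long-transcript score (-0.0141), and the cause was not tested. These values lie within 1 SE of 0. Leaving out 1 sample gave -0.0789 to 0.197 for *Krt8*, -0.0249 to 0.140 for *Lmna*, -0.0410 to 0.115 for *Lmnb2*, 0.13 to 0.83 for *Des* and 0.02 to 0.11 for *Lmnb1*. It gave -0.0744 to 0.414 for the *Vim* to *Krt18* ratio, -0.0981 to 0.0968 for *Lmna* to *Lmnb1*, and correlations of -0.0288 to 0.388 for *Lmna* with *Lmnb1* and -0.397 to 0.0195 for *Lmnb1* with *Lmnb2*. Per kb of the longest transcript in place of all exons, log2 levels moved to 8.06 for *Vim*, -0.0569 for *Lmna* and 2.88 for *Lmnb2*. No paired analysis was possible because the replicate numbers are animal numbers and the groups share none. Counts of at most 16 for *Krt8* and 13 for *Nes* limit what could be seen of these genes.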
